A study of Caenorhabditis elegans with 2 samples.

Results

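The regions described here lay directly below the authors' threshold in a ChIP-seq map of LIN-35 in *Caenorhabditis elegans*. They were chosen by their deposited signal: the pooled list of candidate regions was sorted by signal, the 604 rows after the last thresholded peak, down to rank 1000, were taken, and 1 mitochondrial row was dropped. This left 603 regions of the 30000 in the pooled list, of which 29978 were nuclear. LIN-35 carrying GFP and FLAG tags was precipitated from whole, mixed-sex young adults of strain YL402. In this strain the *pie-1* promoter, active in the germline, drives the tagged protein from the integrated transgene vrIs56, and an *unc-119* copy rescues the *unc119(ed3)* mutation. Both libraries, biological replicates 2 and 3, carry the same genotype and received no treatment named in the labels, so they form 1 group. The map therefore reports the tagged protein in the cells where this transgene is expressed, and no second condition was compared.

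LIN-35 is the retinoblastoma-like pocket protein of the worm. It works in the DREAM complex, in which the pair EFL-1 and DPL-1 recognises E2F motifs and LIN-54 recognises the CHR motif, and the complex is known for repressing cell cycle genes and, in somatic cells, germline genes. A ChIP-seq list usually has no natural end, since regions of weak signal grade into background. An IDR threshold (irreproducible discovery rate) is meant to keep those that rank alike in both replicates. Here the thresholded peaks were the top rows of the pooled list by signal. Of the 357 nuclear thresholded peaks found in both replicate lists, 72 had ranks over 10-fold apart. Falling below the threshold therefore marks a lower pooled signal, and not by itself a disagreement between replicates.

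Example windows of 121 bp around the summit are printed for some of these regions. They were taken from the highest-ranked regions, from those ranked best in both libraries and from named germline genes, and none overlaps an annotated UTR. Capitals mark E2F matches (TTCCCGC, or TTCGCGC, or TTGCCGC, or TTGGCGC) and CHR matches (TTCGAA or TTTGAA) on either strand. Sequences are from the RefSeq genome WBcel235, which equals ce11, written 5′ to 3′.
let-858, ce11 chrII:11022126-11022246, plus strand: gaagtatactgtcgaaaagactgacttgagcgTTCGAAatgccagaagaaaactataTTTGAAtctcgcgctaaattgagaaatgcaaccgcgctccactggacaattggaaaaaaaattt
rps-22, ce11 chrIII:1950359-1950479, plus strand: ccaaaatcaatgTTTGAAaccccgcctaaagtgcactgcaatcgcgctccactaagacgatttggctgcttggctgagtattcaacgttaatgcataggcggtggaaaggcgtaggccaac
F39G3.3, ce11 chrV:4731503-4731623, plus strand: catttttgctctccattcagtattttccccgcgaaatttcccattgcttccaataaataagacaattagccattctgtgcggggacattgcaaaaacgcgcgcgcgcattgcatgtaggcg
nduf-11, ce11 chrII:11345770-11345890, plus strand: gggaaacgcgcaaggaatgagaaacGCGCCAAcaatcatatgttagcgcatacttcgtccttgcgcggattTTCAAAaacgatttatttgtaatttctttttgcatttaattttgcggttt
ife-3, ce11 chrV:8188-8308, plus strand: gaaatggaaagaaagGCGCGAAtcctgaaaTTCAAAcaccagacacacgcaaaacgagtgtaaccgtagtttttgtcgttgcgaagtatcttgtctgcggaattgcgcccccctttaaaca
oma-2, ce11 chrV:8029058-8029178, plus strand: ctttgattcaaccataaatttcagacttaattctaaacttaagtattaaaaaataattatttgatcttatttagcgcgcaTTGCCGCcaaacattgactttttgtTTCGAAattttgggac
far-4, ce11 chrV:13000199-13000319, plus strand: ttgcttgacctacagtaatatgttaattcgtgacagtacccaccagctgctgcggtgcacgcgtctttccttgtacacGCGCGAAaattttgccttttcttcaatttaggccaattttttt
hmg-4 and T20B12.3, ce11 chrIII:7381863-7381983, plus strand: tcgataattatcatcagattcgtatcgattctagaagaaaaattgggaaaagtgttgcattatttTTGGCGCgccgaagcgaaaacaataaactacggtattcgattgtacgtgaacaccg
The windows of *let-858* and *rps-22* hold CHR matches only, and that of F39G3.3 holds neither motif. The windows of *nduf-11*, *ife-3* and *oma-2* hold both motifs, and those of *far-4* and of *hmg-4* hold an E2F match only. The windows were chosen to cover these motif classes, so their mix is not that of the 603 regions. Within 100 bp of the summit, 19.9% of the 603 held an E2F match and 37% held neither motif. A match is a description of the letters and not evidence of a site in use.

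The signal of the 603 regions ran from 20 to 29.92 with a median of 22.7, on the authors' scale, whose unit the sources used here do not name. The 376 nuclear thresholded peaks above them ran from 29.96 to 278.8 with a median of 43.3, and the 1000 nuclear regions of the next ranks, down to rank 2000, ran from 16.51 to 19.99. There was no gap at either edge. Just above the upper edge stood the peaks nearest *spg-7* at 30 and F46G11.4 at 29.96, and just below it *let-858* at 29.92, *rps-22* at 29.88 and *lpd-6* at 29.87. At the lower edge the region nearest *hpo-38* had rank 1000, and that nearest *zyx-1*, at 19.99, followed it. The deposited −log10 q-value was at its list maximum of 3.22 in 432 of the 603 regions (71.6%), in all 376 nuclear thresholded peaks and in 0 of the 1000 next regions. These values chose the regions or come from the same calling, so they are given without a test.

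The regions were placed between the thresholded peaks and the next ranks in their position relative to genes. The summit lay within 500 bp of a protein-coding start in 284 of 603 regions (47.1%, exact 95% interval 43.1 to 51.2), against 31.6% of the next 1000 regions, 84% of thresholded peaks and 23.1% of all nuclear regions. Both differences passed two-sided Fisher's exact tests (adjusted p = 2.8e-09 and 2.0e-31, Benjamini-Hochberg over 14 comparisons of shares). Regions with starts on both strands within 500 bp made up 10.9%, against 4.9% of the next regions (Fisher's exact test, adjusted p = 1.4e-05), 25% of thresholded peaks (3.4e-08) and 2.03% of all nuclear regions. Intergenic summits made up 54.7%, against 43.4% (1.6e-05), 84.6% (2.7e-22) and 36.5% in the same order. The remainder lay in introns (123 regions), coding exons (103), 5′ UTRs (26), 3′ UTRs (20) and 1 other exon. These tests count regions, which are not independent worm populations, and measure counting error only. When the same ranks were taken from the replicate 3 list alone, without replicate 2, the promoter share was 32.2% against 28.5% (Fisher's exact test, adjusted p = 0.15) and the intergenic share 44.8% against 41% (0.168), while the both-strand share was 6.97% against 3.2% (0.00101). From the replicate 2 list alone the promoter and intergenic shares were 45.8% against 31.9% (6.3e-08) and 48.8% against 39.4% (3.3e-04). Most rows taken from 1 list in this way are not among the 603 regions. Among the 299 lowest-ranked regions alone the intergenic share was 45.8% against 43.4% (0.502) and the both-strand share 7.69% against 4.9% (0.0963).

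**Figure D1:**
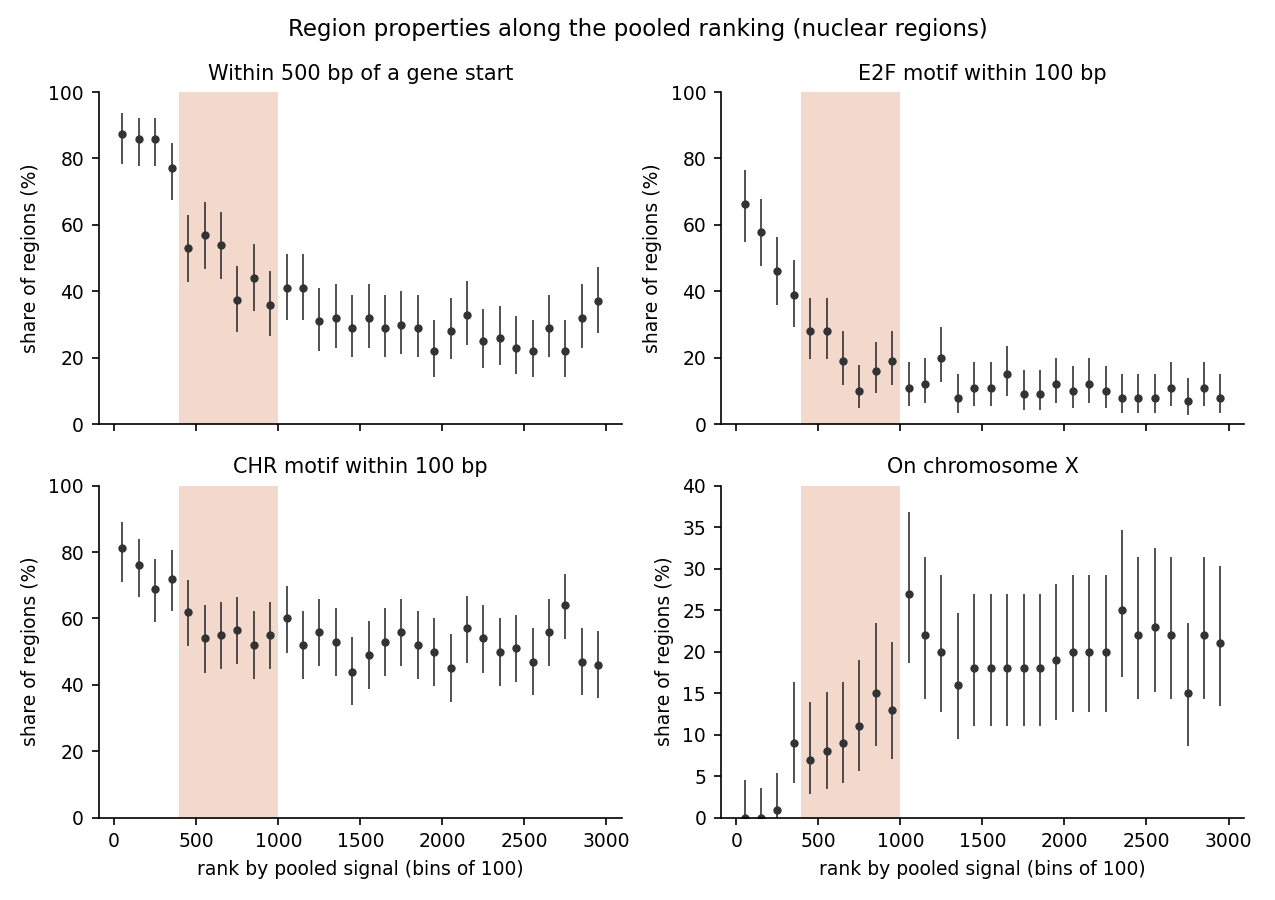
Shares of nuclear regions (%, with exact 95% intervals) in bins of 100 ranks along the pooled list: summits within 500 bp of a gene start, with an E2F motif, with a CHR motif, and on chromosome X (axis to 40%). The shaded band marks the 603 regions, whose bins near gene starts range from 36% to 57%, against 86% in the bin of ranks 201 to 300.

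The position was asymmetric. Among the 284 regions near a start, 216 (76.1%) lay upstream of it, against 92.7% in thresholded peaks, 65.5% in the next ranks and 54.5% over all nuclear regions near a start. Here the fullest 100 bp bin was 200 to 100 bp upstream, with 83 regions (13.8% of 603). The median distance from summit to start was 544 bp (quartiles 174 and 1676), against 203 bp in thresholded peaks and 1121 bp in the next ranks. Of the 603 regions, 12 had a thresholded summit within 1000 bp.

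**Figure D2:**
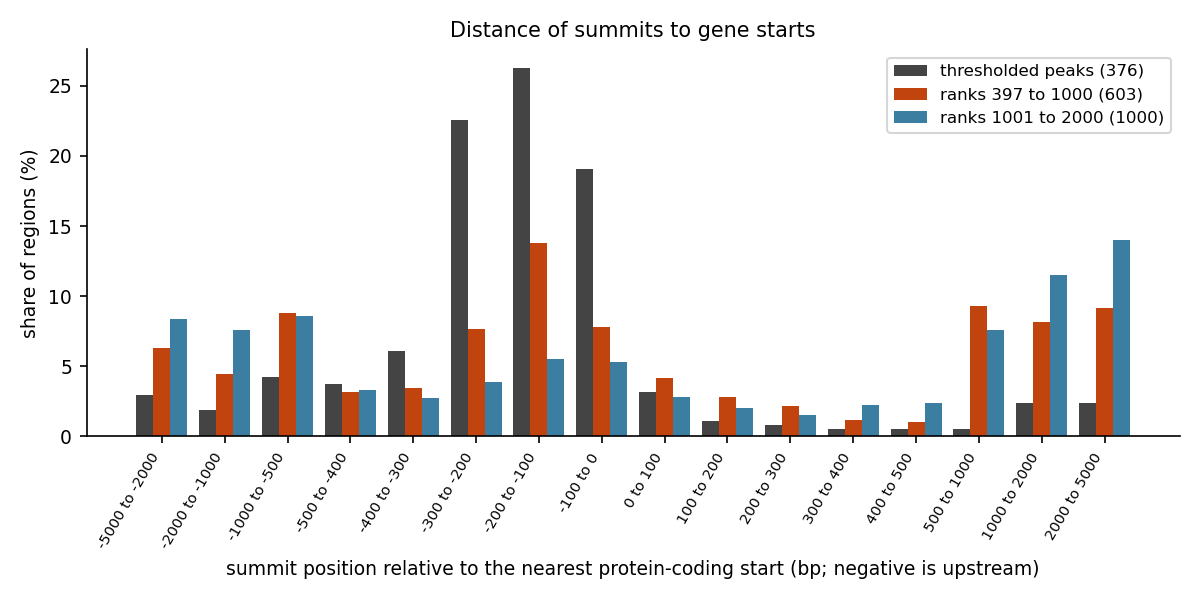
Share of regions (%) by summit position relative to the nearest protein-coding start (bp, negative is upstream; bins differ in width) for thresholded peaks, the 603 regions and the next 1000. The bin from 200 to 100 bp upstream holds 26.3%, 13.8% and 5.5% of them.

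E2F motifs were more frequent than in the ranks below and less frequent than in thresholded peaks. An E2F match lay within 100 bp of the summit in 120 regions (19.9%, 16.8 to 23.3), against 11.8% of the next regions (Fisher's exact test, adjusted p = 2.2e-05), 52.1% of thresholded peaks (1.4e-24) and 7.8% of all nuclear regions. At the same ranks of the replicate 2 list alone the share was 12.8% against 9.1% (Fisher's exact test, adjusted p = 0.0291). In the replicate 3 list it was 16.9% against 10.9% (9.7e-04). These rows are not the 603 regions, of which 183 were in the top 1000 of replicate 2 and 184 in that of replicate 3. Such rows can include thresholded peaks, so they do not give the share of the 603. In the pooled list, among summits near a start, the shares were 25.4% and 18.4% (0.0597). Among the 299 lowest-ranked regions the share was 15.1% (0.16 against the next ranks). The matches clustered at the summit: the bin from 0 to 50 bp held a match in 8.62% of regions, against 0.498% to 3.15% in bins beyond 100 bp on either side. This is not particular to these regions. The same bin held a match in 26.3% of thresholded peaks and in 4.4% of the next ranks, whose bins beyond 100 bp held 0.8% to 2.4%. Median GC content over 201 bp was 37.3% both here and in the next ranks.

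CHR matches lay within 100 bp of the summit in 338 regions (56.1%), close to the 52.3% of all nuclear regions. The difference from the next ranks (52.5%) was 3.55 percentage points (Fisher's exact test, adjusted p = 0.193), while thresholded peaks stood at 73.9% (3.4e-08). At the same ranks of the replicate 3 list alone, which hold mostly other regions, the shares were 56.2% and 49.2% (Fisher's exact test, adjusted p = 0.00849). TTCGAA is also part of the B box of tRNA genes, and in 3 regions every CHR match lay in a tRNA gene. Both motifs occurred in 78 regions, E2F alone in 42, CHR alone in 260 and neither in 223.

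**Figure D3:**
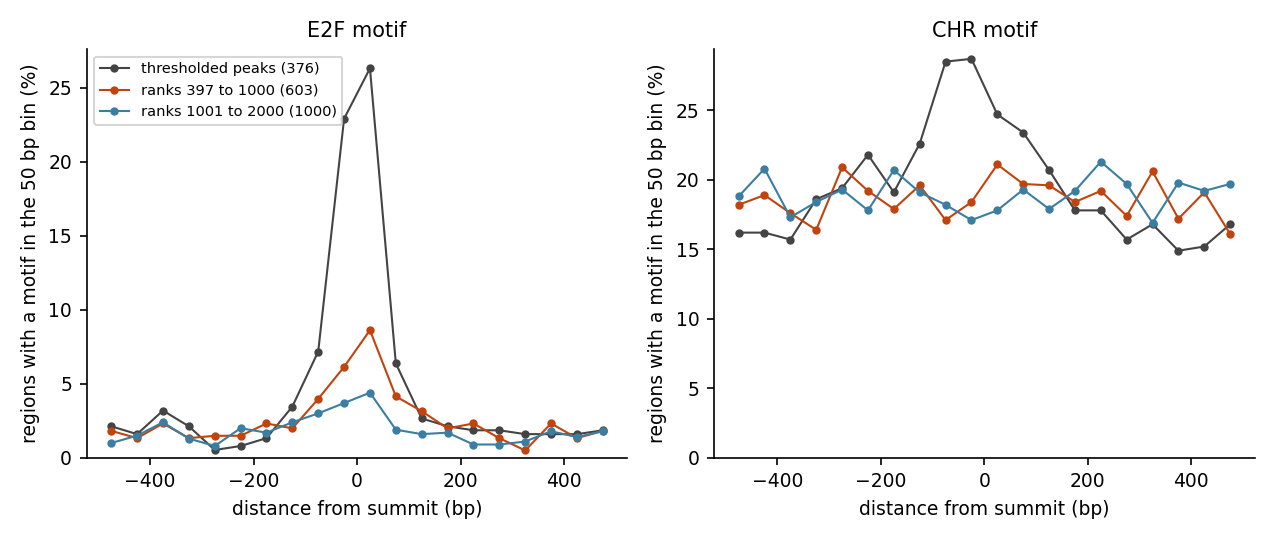
Share of regions (%) with an E2F or CHR match in each 50 bp bin around the summit, for thresholded peaks, the 603 regions and the next 1000. E2F matches in the 603 regions rise to 8.62% next to the summit, below the 26.3% of thresholded peaks.

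Other words were found by searching these same regions, so their shares are descriptions of a choice made after the values were seen. All 2080 words of 6 letters (a word and its complement counted together) were ordered by their share in the 603 regions minus that in the next ranks, and 10 further words were tried by hand. Of the first 20 in that order, 10 hold CGCG or GCGC, and most of the others are rich in A. GCGCGC, number 10 in the order and overlapping part of the E2F word TTCGCGC, lay within 100 bp of 11.8% of the regions, 5% of the next ranks, 28.7% of thresholded peaks and 2.36% of all nuclear regions. It was present in 45 of the 483 regions with no E2F match (9.32%). AGAGAG, the second in the order, was present in 18.6%, against 9.8% of the next ranks, 12.2% of thresholded peaks and 10.6% of all nuclear regions. CGCTCCA, a word tried by hand after it was seen in the windows of *let-858* and *rps-22*, was present in 5.47%, against 3.5%, 12% and 1.76%.

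The regions were unevenly supported by the libraries. Of the 603, 403 (66.8%) overlapped a region in both replicate lists by at least 1 bp, against 94.9% of thresholded peaks, 41% of the next ranks and 15% of all nuclear regions. A further 63 were in the replicate 2 list only, 127 in the replicate 3 list only and 10 in neither. With summits required to lie within 100 bp, 49.4% were in both. Only 24 regions (3.98%) were in the top 1000 of both lists, against 63.8% of thresholded peaks and 0.924% of all nuclear regions, although 343 were in the top 1000 of at least 1 list. Of the 403 in both, 140 (34.7%) had ranks over 10-fold apart, against 20.2% of thresholded peaks, 21.2% of the next ranks and 11.8% of all nuclear regions in both lists. The pooled signal was made from the same libraries, so these are descriptions without a test, and the replicate 2 list is shorter, with 20291 regions against 30000.

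**Figure D4:**
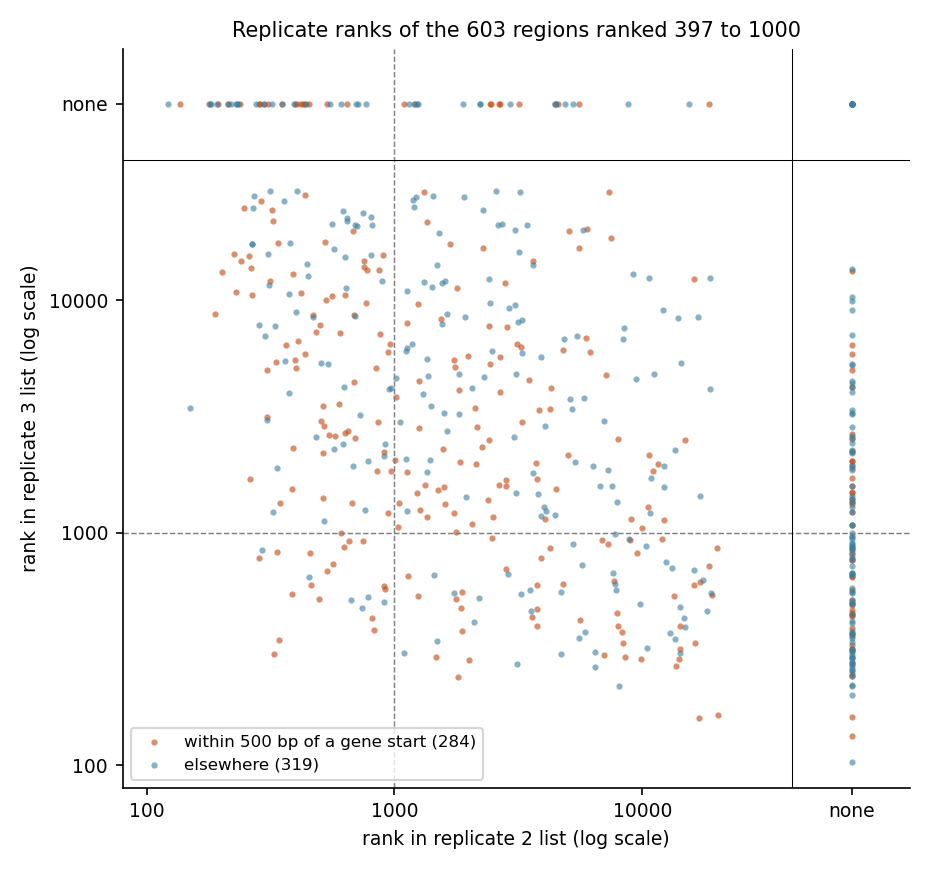
Rank of each of the 603 regions in the replicate 2 and replicate 3 lists (log scales; "none" marks no overlapping region), coloured by distance to a gene start; dashed lines mark rank 1000. Only 24 points lie below rank 1000 on both axes.

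The regions ranked best in both libraries were mostly upstream of genes. That of *nduf-11*, which encodes a subunit of respiratory complex I, had rank 325 in replicate 2 and 302 in replicate 3, 210 bp upstream of the start. Y110A7A.15 had ranks 341 and 345, and these were the only 2 of the 603 within as many top ranks of both lists as there are thresholded peaks. The next were *era-1* (497 and 517), *rcat-1* (386 and 545), F39G3.3 (462 and 596), *pyk-1*, for pyruvate kinase (450 and 645), *far-4*, for a fatty acid and retinol binding protein (670 and 515), and *ceh-39*, a homeobox gene that acts as an X signal in sex determination (535 and 684). The summits nearest *pyk-1* and *far-4* lay 1248 and 600 bp upstream, with no protein-coding start within 500 bp. Other regions rested on 1 library. That of *rps-22* ranked 201 in replicate 2 and 13271 in replicate 3, and that of *ppw-1*, an Argonaute gene, ranked 20210 and 164. Neither list ranked the region nearest Y59A8B.12 high, although its pooled signal was 28.8. It was in no replicate 2 region, ranked 13393 in replicate 3 and lay 548 bp from a thresholded summit.

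The surroundings of the transgene's own parts were checked. Within 3000 bp of *pie-1* lay the regions of rank 406 and 801, within 3000 bp of *unc-119* rank 942, and within 3000 bp of *lin-35* rank 563, which is the *hmg-3* region described below. The region of rank 406 lay 557 bp upstream of *pie-1* and ranked 8070 in replicate 2 and 219 in replicate 3. A thresholded summit lay 421 bp from it, and *pie-1* itself had a thresholded peak. The part of the transgene in these values was not tested.

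Genes with a region within 500 bp of their start numbered 350, or 5.1% of the 6861 genes with any nuclear candidate region there, and 408 (5.95%) had a thresholded peak. Only 3 genes had both: *tba-2*, *pot-3* and F09G2.2. Of genes with a candidate but no thresholded peak, 5.38% had one of the 603 regions. The gene lists below were chosen with earlier results of these data known, and their counts are read against those shares without a test.

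Genes of chromosome duplication and segregation were represented. Of 35 DNA replication genes with a candidate, 14 had a thresholded peak and 5 more (14.3%) had one of the 603 regions. These were *gmn-1* (geminin, an inhibitor of origin licensing), *rnr-1* (ribonucleotide reductase), *crn-1* (a flap endonuclease), *tipn-1* (a replication fork protein) and *mcm-5* (a helicase subunit). The region of *rnr-1*, 82 bp upstream, had pooled signal 26.2 and ranks of 4251 and 862 in replicates 2 and 3. That of *mcm-5* had pooled signal 20.3, was in no replicate 2 region and ranked 1397 in replicate 3. Of 23 kinetochore genes, 10 had a peak and 3 had a region: *mdf-2* (spindle checkpoint), *kbp-3* and *knl-2* (needed to load centromeric histone). All 3 held an E2F and a CHR match. The *mdf-2* region also lies near *nduv-3*, counted below among respiratory chain genes, and was absent from the replicate 2 list. Of 42 cell cycle genes, 11 and 4 did, the 4 being *icp-1* (the INCENP of the chromosomal passenger complex), *bmk-1* (a spindle kinesin), *cdk-1* and *cyb-2.2*. The *icp-1* region, 105 bp upstream with signal 29.4, ranked 336 and 826. The *bmk-1* region is shared with *coh-3* (a meiotic cohesin) and ranked 284 and 782. With the centriole genes *sas-6* and *tac-1*, 14 regions served these lists, and 8 of them held an E2F match. For comparison, E2F matches were present in 25.4% of the 284 regions near a start and in 10.5% of all nuclear regions near a start. Of 32 DNA damage and repair genes, 3 had a peak and 1 (3.12%) had a region, *polh-1* (a translesion polymerase), whose region is the one described for *rps-22*.

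Germline genes were present too. Of 35 germ granule and small RNA genes, 2 had a thresholded peak and 7 (20%) had one of the 603 regions: the Argonautes *hrde-1*, *wago-1* and *ppw-1*, the RNA polymerase *ego-1*, and *mut-15*, *erh-2* and *znfx-1*. The *hrde-1* region ranked 188 in replicate 2 and 8744 in replicate 3, and that of *ego-1* 331 and 5443. That of *wago-1* ranked 536 in replicate 2 and was absent from replicate 3. Of 27 germline RNA-binding genes, 11 had a peak and 4 a region: *ife-3* (an eIF4E), *oma-2* (oocyte maturation), *nos-3* (a Nanos protein) and *mex-6*. Of 24 meiosis genes, 6 had a peak and 3 a region, namely *coh-3*, *lab-1* and *hal-3*. The germline chromatin list had 3 and 3 of 13, with *mrg-1* (ranks 1029 and 1061) and the FACT genes *hmg-3* (407 and 6703) and *hmg-4* (743 and 920). Of 20 eggshell genes 12 had a peak and 1, *cpg-3*, a region. Of 8 polarity genes 0 had a peak and 1, *pkc-3* (an atypical protein kinase C), a region.

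Genes of the complex itself were not among them. None of *dpl-1*, *lin-37*, *lin-52*, *lin-9*, *lin-53*, *efl-1*, *lin-54* and *lin-35* had one of the 603 regions. The last 5 had thresholded peaks, the best region of *lin-52* had rank 23871, and *dpl-1* and *lin-37* had no candidate region within 500 bp. That left only *lin-52* with a candidate region and no thresholded peak. Among all such genes 5.38% had one of the 603 regions, so the absence says little. In the wider synMuv B list, *lin-36* had a region (ranks 2817 and 1588).

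Housekeeping genes were also present. The large ribosomal subunit list, in which *ubl-1* was counted, had 10 peaks and 6 regions among 43 genes. The small subunit list had 6 and 2 among 24. The 8 ribosomal protein regions held no E2F match, against 25.4% with a match among the 284 regions near a start. The exact interval for these 8 regions ran from 0 to 36.9% and includes 25.4%, so the absence says little. This contrast was not tested. Splicing genes had 6 peaks and 6 regions among 37, including *hel-1* and *hrpa-1*. These 6 regions held a CHR match, as did 59.9% of the 284 regions near a start and 53.6% of all nuclear regions near a start. The 6 are few, from a list picked out among 28, and the contrast was not tested. Nuclear pore genes had 10 and 4 of 27, respiratory chain genes 3 and 5 of 38, mitochondrial ribosomal genes 2 and 4 of 39, translation factors 6 and 4 of 28, proteasome genes 4 and 2 of 24 and histone genes 2 and 3 of 19. The histone genes *his-67* and *his-68* share 1 region and belong to a multigene family in which reads can fall on near-identical copies. Somatic lists were near or below the background: 4 of 181 neuron genes (2.21%), 2 of 78 nuclear hormone receptor genes, 1 of 45 collagen genes, 1 of 24 muscle genes (*unc-45*, a myosin chaperone) and 1 of 18 vitellogenin and intestine genes. No aminoacyl-tRNA synthetase gene of 14 and no major sperm protein gene of 3 had one.

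**Figure D5:**
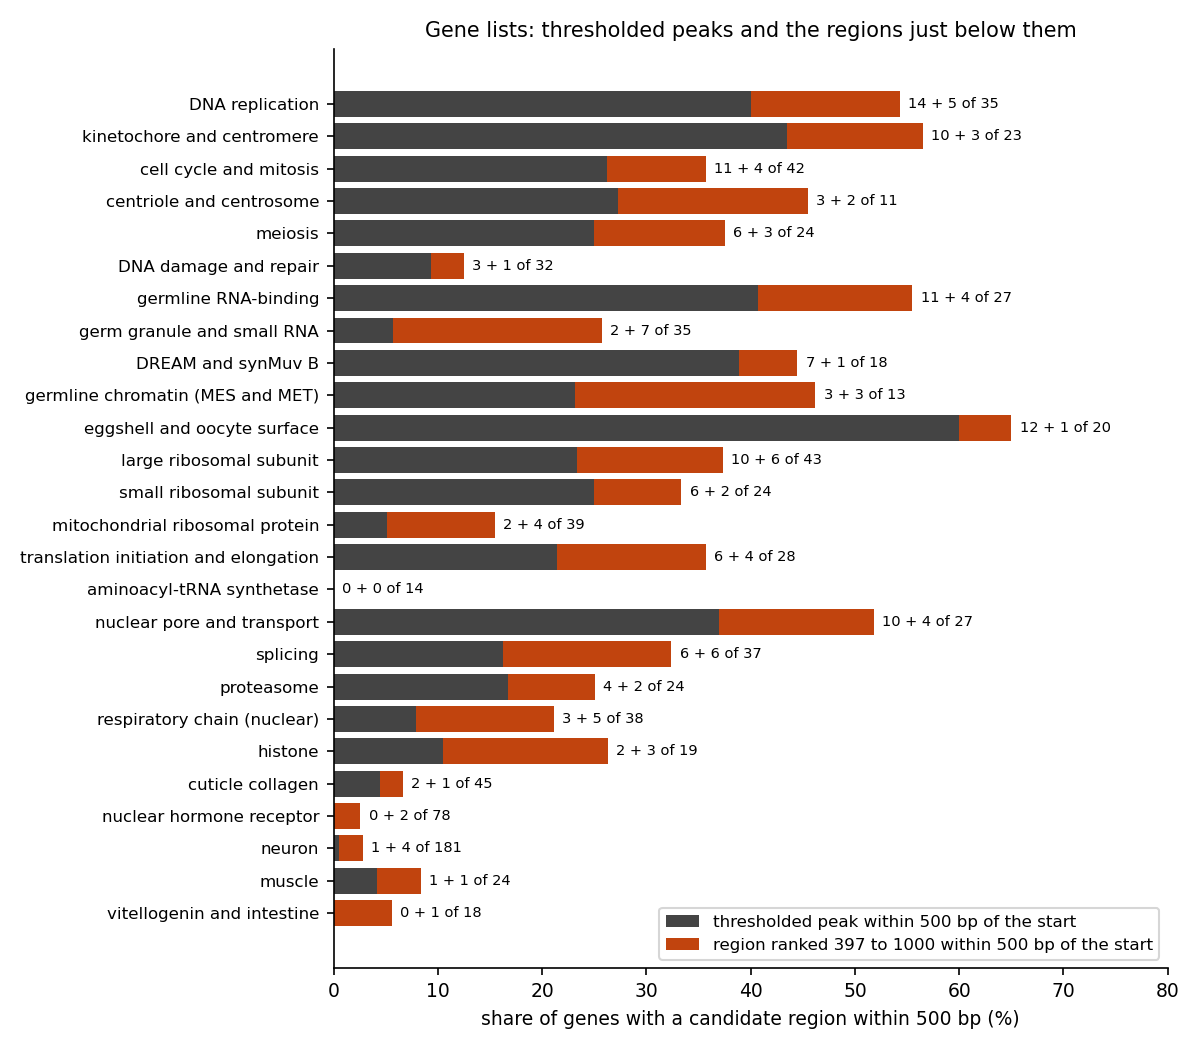
Share of the genes of each list (%) that have a thresholded peak (dark) or one of the 603 regions (orange) within 500 bp of the start, among genes with any candidate region there; the counts beside the bars are peaks plus regions of genes. Germ granule and small RNA genes have 2 and 7 of 35, and eggshell genes 12 and 1 of 20.

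Chromosome X held fewer of the regions than of the ranks below. The share was 10.6% (64 regions), against 19.4% of the next ranks (Fisher's exact test, adjusted p = 4.2e-06), 2.39% of thresholded peaks (1.1e-06) and 20% of all nuclear regions. The difference from the next ranks was not called in either library alone, at 12.3% against 15.4% without replicate 3 (0.105) and 20.2% against 23.1% without replicate 2 (0.206). Per megabase there were 3.61 regions on X, against 5.26 to 8.85 on the autosomes. Among the X regions, 14 of 64 (21.9%) were near a gene start, against 50.1% of the 539 autosomal ones, and 13 (20.3%) had a tRNA gene within 500 bp, against 9 (1.67%). The next ranks showed a contrast in the same direction, with 15.5% of X regions and 35.5% of autosomal ones near a start and 9.28% and 2.23% near a tRNA gene. These contrasts were not tested. Of the X regions with the highest signal, that of *ceh-39* lay 156 bp upstream with both motifs, while those nearest *srd-51* (a chemoreceptor gene) and Y34B4A.4 were absent from the replicate 2 list.

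A tRNA gene lay within 500 bp of 22 of the 603 regions (3.65%), against 3.6% of the next ranks (Fisher's exact test, adjusted p = 1), 1.6% of thresholded peaks (0.0879) and 1.23% of all nuclear regions. Against all nuclear regions ranked below 1000 (1.18%) the adjusted p was 1.1e-05. At the same ranks of the replicate 2 list alone the share was 1.5% against 1.8% (Fisher's exact test, adjusted p = 0.694). In the replicate 3 list it was 2.49% against 2% (0.597).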

How the data were processed

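The 2 libraries are labelled biological replicates 2 and 3, technical replicate 1. Pooled rows 397 to 1000 were taken, and rows 1001 to 2000 served as the next ranks. The deposited lists give, per region, a summit, the authors' enrichment signal and, by column order, a −log10 q-value; a control alignment was used, per the deposited text. Aligner, caller, IDR threshold and signal scale: not given in the sources used here. Depth was not used here, so intervals cover counting error only. The labels give each library its own biosample, and do not say how the worm cultures were kept. Signal was used only to rank regions within a list.

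Gene starts and exons came from Ensembl release 115, and sequence from RefSeq WBcel235. A region was near a gene when its summit lay within 500 bp of a protein-coding start, and motifs were searched within 100 bp of the summit. Classes were compared region by region with Fisher's exact test (two-sided) and Benjamini-Hochberg adjustment over 14 comparisons (threshold 0.05), with exact Clopper-Pearson 95% intervals. Motif search, tests and overlaps were tested on simulated data or against bedtools. The regions, lists and motifs were chosen with earlier results of these data known. Of the list names, 11 did not match the annotation. Named were the nearest genes of the 12 highest and 4 lowest regions (not all printed), list members, 8 DREAM genes, the regions ranked best in both libraries or absent from 1, and X regions. The search of 2080 words and the 10 words tried by hand were added after the data were seen. Columns of per-sample values left unused numbered 0. Tests ran in scipy 1.17.1 and statsmodels 0.14.6 under Python 3.11.15; tables were handled in pandas 2.3.3 with numpy 2.4.6, and plots drawn in matplotlib 3.10.9.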

Additional observations from a re-analysis of the deposited data

How the results depend on the processing

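Of 111 alternatives to the comparisons of shares, 98 kept their direction and side of the threshold, 8 lost the call, 2 gained it and 3 changed sign. Values are differences from the next ranks in percentage points. Leaving out 1 library meant taking the same ranks from the other library's list, which hold mostly other regions. Of the 603, only 183 were in the top 1000 of replicate 2 and 184 in that of replicate 3. Leaving out 1 library gave 3.67 to 13.9 for the promoter share, 3.78 to 9.44 for the intergenic share and -3.11 to -2.87 for the X share. For the CHR share it gave 1.25 to 7.02, and for both-strand promoters 3.77 to 5.67. The 299 lowest-ranked regions alone gave 2.79 for both-strand promoters, 2.42 for intergenic summits and 3.25 for E2F motifs. The 3 that changed sign were all of the tRNA share, which differed by 0.0484 and was not called: it gave -0.256 among the 299 lowest-ranked regions, -0.286 within 1000 bp, and -0.305 to 0.488 with 1 library left out. E2F motifs among summits near a start differed by 7.0, and tRNA genes by 2.47 against all regions ranked below 1000. The share in both replicate lists was 49.4% with summits within 100 bp and 58.2% with overlap over at least 50% of the region. Genes with a region numbered 527 within 1000 bp, 210 from the regions down to rank 700 and 141 from the 299 below. The causes were not tested. With 1 group of 2 libraries, the spread between worm populations was not measured, and regions of 1 library are not replicates.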
